A study of Mus musculus with 24 samples.

Results

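The genes described here encode the machinery that attaches and removes the ubiquitin-like protein ISG15, together with the apolipoprotein L gene pair Apol9a and Apol9b. The set holds 7 of the 56748 genes in the deposited table. Isg15, Uba7, Ube2l6, Herc6 and Usp18 were chosen by function. Apol9a and Apol9b were selected on their counts, for a large rise with silencing of P16, so their values with the P16 hairpin are given as a description without a test. All 7 are listed as protein-coding, and all 7 passed the filter on low counts in each comparison.

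ISG15 is a small protein made of a pair of ubiquitin-like folds, and type I interferon is its classical inducer. It is joined to lysines of target proteins by a cascade of its own: UBA7 is the activating enzyme (E1), UBE2L6 the conjugating enzyme (E2) and HERC6 the main ligase (E3) in mice. USP18 cuts ISG15 off its targets again and, independently of that activity, dampens signalling at the type I interferon receptor. Apol9a and Apol9b are closely related mouse genes of the apolipoprotein L family, a group of lipid-binding intracellular proteins of which several respond to interferon.

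The cells were mouse liver endothelial cells, isolated with magnetic beads against Cd31 (general endothelial cells) or Cd146 (liver sinusoidal endothelial cells) from C57BL/6 mice aged 3 months, which the study's methods describe as female. Each population was transduced with lentiviral particles that carried a small hairpin against P16 (P16 shRNA), a non-coding hairpin (nc shRNA), a P16-GFP fusion for overexpression (P16) or the same overexpression vector without the insert (empty vector), and RNA was taken 1 week later. All groups were thus virus-transduced cultures and none was left untransduced. The 8 groups of 3 gave 24 libraries, with 15409767 to 26470392 counts each, and a floor of 3 counts corresponded to between 0.113 and 0.195 CPM (counts scaled to library size). Replicate numbers were shared between groups within a population, but the labels do not say whether a number stands for an animal, so the p-values measure the spread between these libraries. RNA was measured from whole cultures, in which fewer cells of a type and less RNA per cell cannot be told apart.

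The targeted gene Cdkn2a, which encodes P16, followed the labels. It lay at 5.12 to 9.22 CPM with P16 shRNA and at 36.2 to 75.9 CPM with nc shRNA in Cd31+ cells, and at 7.79 to 25.7 CPM against 94.5 to 196 CPM in Cd146+ cells. With the P16 construct it reached 137 to 330 CPM in Cd31+ and 228 to 834 CPM in Cd146+ cells. Of the endothelial markers, Pecam1 ranged from 4.05 to 281 CPM over the 24 libraries, Cdh5 from 3.70 to 366 CPM, and Mcam from 3.22 to 391 CPM. Of the markers known for sinusoidal cells, Stab1 ranged from 3.63 to 430 CPM, Lyve1 from 0.131 to 7.53 CPM and Fcgr2b from 0 to 6.79 CPM, while Stab2 and Clec4g had maxima of 0.962 and 0.225 CPM. The summed level of 16 endothelial genes was 366 to 764 CPM with P16 shRNA and 656 to 1283 CPM with nc shRNA in Cd31+ cells. The summed level of 11 mesenchymal genes, led by Col1a1 with a mean of 10945 CPM, was 24090 to 51051 CPM and 20192 to 37769 CPM in these groups. Of 13 macrophage genes, Clec4f, Timd4 and Marco were at or near 0, and the summed level was 36.0 to 115 CPM against 43.9 to 145 CPM. In Cd146+ cells the endothelial sums were 467 to 1842 CPM with P16 shRNA against 530 to 2087 CPM with nc shRNA, the mesenchymal sums 25540 to 31837 CPM against 11029 to 27439 CPM, and the macrophage sums 20.5 to 287 CPM against 27.4 to 326 CPM. The summed level of 5 cholangiocyte genes, on average mostly from Spp1, was 189 to 982 CPM (median 232) with P16 shRNA in Cd31+ cells. With nc shRNA there it was 99.1 to 802 CPM (median 103). In Cd146+ cells it was 166 to 295 CPM (median 254) against 38.4 to 218 CPM (median 54.5). Of the same list, Sox9 reached 134 CPM, Krt19 40.1 CPM and Krt7 23.2 CPM over the 24 libraries, while Epcam was at most at 0.246 CPM. Of the other lists, 8 hepatocyte genes summed to at most 2.31 CPM and 8 lymphoid genes to at most 7.83 CPM in any library. The part of these cell types in the results was not tested. All 8 libraries with a replicate number of 4, 5 or 6 carried Xist at 343 to 804 CPM and no Ddx3y count, whereas all libraries numbered 1, 2 or 3 carried the Y-linked Ddx3y at 48.6 to 163 CPM and Xist at no more than 0.223 CPM, which goes against the description of the mice as female for the latter. The 6 silencing libraries of Cd31+ cells were all of the Ddx3y type.

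The promoters differed in the letters that factors downstream of the interferon receptor are known to bind, the interferon-stimulated response element. The 300 bases around the start site (250 before, 50 after) were taken from RefSeq, build GRCm38.p6, for 6 of the 7 genes; Usp18 was not among them. The letters AAANNGAAA were searched on both strands, alone or with a further G in front (the full element), and overlapping matches were counted separately. The full element was held by 3.44% of the 32851 mouse promoters. Isg15 held 3 overlapping matches to it, whose first bases lay 78, 72 and 66 bases before the start, and Apol9a and Apol9b held 2 overlapping matches each. Uba7 held AAANNGAAA without the G, 27 bases before its start site; these 9 letters, with or without a G in front, were found in 10.6% of promoters. Neither motif was found in the windows of Ube2l6 and Herc6, and TTCNNNGAA, the letters of the interferon-gamma activated site that 8.3% of promoters held, was found in none of the 6 genes. The stretches below are printed 5′ to 3′ on the strand of the gene, with the match in capitals, to show the element of Isg15, the reverse-strand match that the Apol9 pair has in common, and the shorter match of Uba7.
Isg15, chr4:156200872-156200899, minus strand: taggaaaagGAAACCGAAAcagaaaata
Apol9a, chr15:77411121-77411148, minus strand: aggtgagacTTTCAGTTTCcatttccca
Apol9b, chr15:77729026-77729053, plus strand: aggtgagacTTTCAGTTTCcatttccca
Uba7, chr9:107975530-107975557, plus strand: ctcagtctagTTTCACTTTtggtttcct

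The stretches of Apol9a and Apol9b have the same letters, and the longest stretch their promoter windows share was 281 bases. These are matches of letters and not measured binding sites. In the deposited table the genes lie at chr4:156283912-156285253 (Isg15, minus strand), chr9:107852704-107861259 (Uba7, plus), chr2:84629172-84640679 (Ube2l6, plus), chr6:57557985-57641617 (Herc6, plus), chr6:121222865-121247876 (Usp18, plus), chr15:77287989-77295335 (Apol9a, minus) and chr15:77613239-77620582 (Apol9b, plus). The table does not name its build, and these positions differ from those of GRCm38, so both sets of coordinates are given with their own source.

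Silencing of P16 was compared with the non-coding hairpin to see how the genes responded to the loss of P16. All 5 conjugation genes were higher with P16 shRNA in both populations, from 2.40-fold for Uba7 to 25.9-fold for Isg15 in the mean CPM of Cd31+ cells, and from 3.13-fold for Herc6 to 73.1-fold for Isg15 in Cd146+ cells. In the edgeR fit of the 6 libraries without a replicate block, none of the 5 passed an adjusted p of 0.05 in either population, although all 5 had an unadjusted p under 0.05 in Cd31+ and 4 of the 5, all but Uba7, in Cd146+ cells. In Cd31+ cells 9.51% of all genes were higher at an unadjusted p under 0.05 and 0.383% at an adjusted p under 0.05; in Cd146+ cells these shares were 5.44% and 0%. With the replicate number as a block (a term of the model that compares libraries of the same number) over the 12 libraries of each population, all 5 rose in Cd31+ and all 5 rose in Cd146+ cells, where 7.95% and 3.53% of all genes rose. In Cd146+ cells number 6 held only a P16 shRNA library, which the block fits exactly and so leaves out of the estimate. The 5 calls there rested on P16 shRNA libraries 3 and 5, with 3 residual degrees of freedom. Empty vector libraries 2 and 4 of these cells were likewise alone in their numbers. The block fitted to the 6 libraries alone gave 5 calls in Cd31+ and 0 in Cd146+ cells, with a background of 8.92% and 0%.

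**Figure D1:**
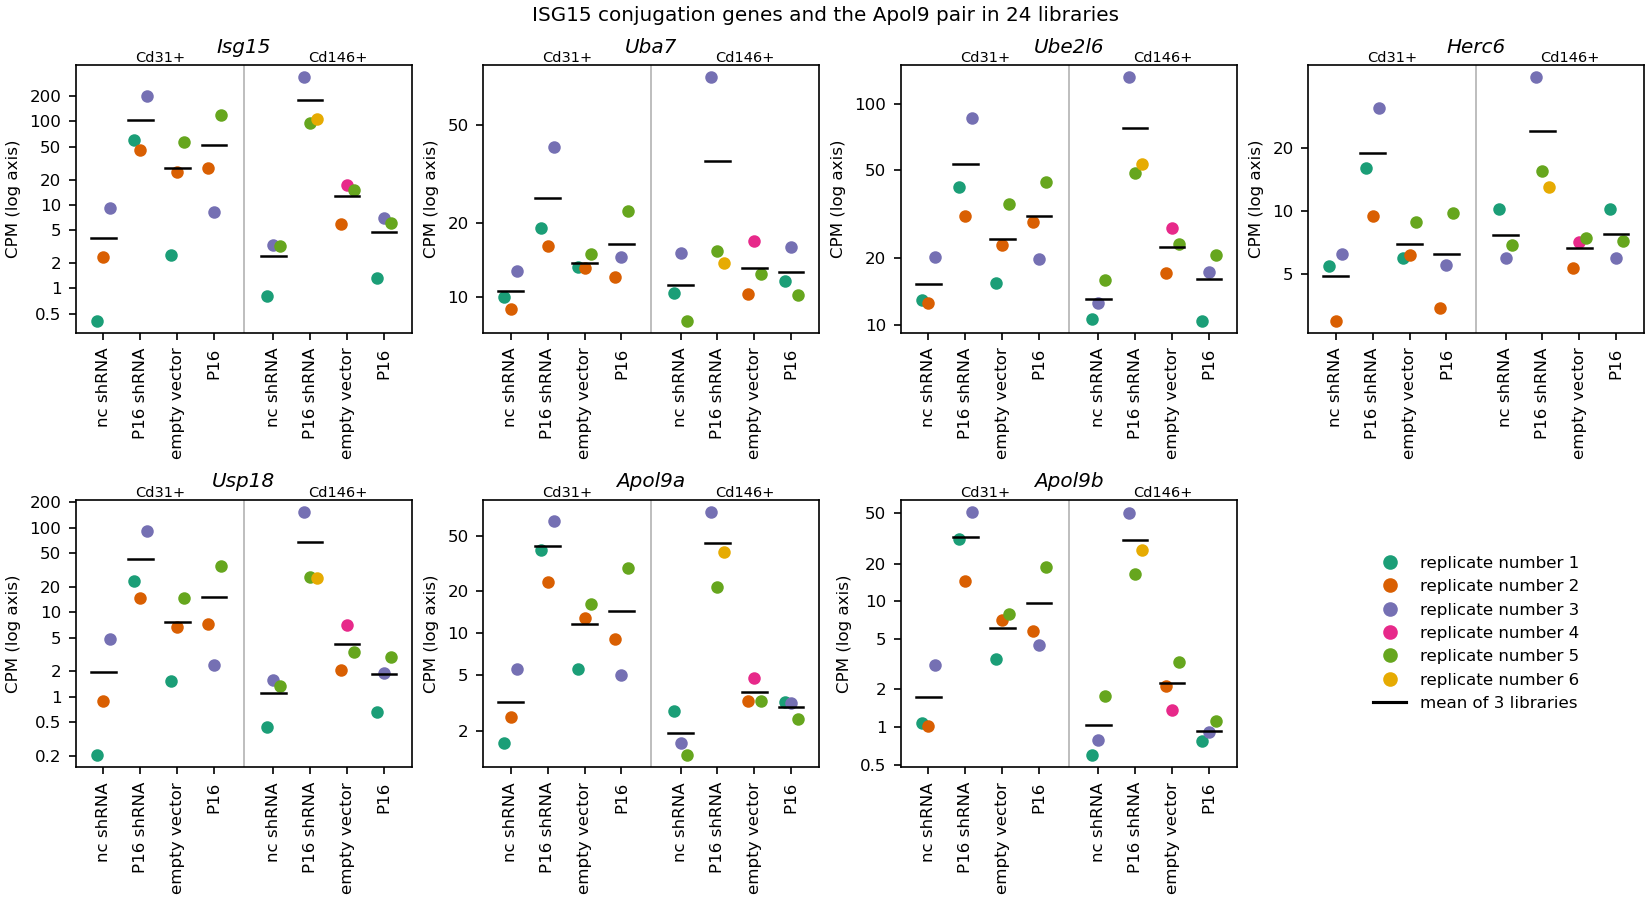
Level of each gene in CPM (log axis) in the 24 libraries, by population and construct. Each point is 1 library, coloured by its replicate number, and the black line is the mean of 3 libraries. The P16 shRNA library numbered 3 was the highest of its group for all 7 genes in both populations.

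Isg15, the modifier itself, had 6, 51 and 163 counts in the nc shRNA libraries 1, 2 and 3 of Cd31+ cells and 1130, 817 and 4363 counts in the P16 shRNA libraries of the same numbers. In CPM these were 0.408, 2.37 and 9.15 against 60.6, 46.0 and 202. The groups did not overlap, as was true in this direction of 13.8% of all genes in Cd31+ and 10.5% in Cd146+ cells. The log2 fold change was 4.69 ± 1.09 (SE, n = 3 and 3, adjusted p = 0.10), and 4.95 ± 1.12 with the block over 12 libraries (adjusted p = 0.037). Within a number the log2 ratio was between 4.28 and 7.21. In Cd146+ cells Isg15 had 15, 79 and 61 counts with nc shRNA (libraries 1, 3 and 5) and 7707, 2686 and 2205 counts with P16 shRNA (libraries 3, 5 and 6), or 0.818, 3.30 and 3.26 CPM against 336, 95.1 and 108 CPM. Again the groups were far apart, and library 3 was the highest. Here the log2 fold change was 6.18 ± 0.81 (adjusted p = 0.31), and 5.84 ± 0.51 with the block (adjusted p = 0.0078).

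Uba7, the E1 enzyme, had the smallest difference of the conjugation genes in Cd31+ cells. Its levels in Cd31+ cells were 9.99, 8.97 and 12.7 CPM with nc shRNA and 19.1, 16.1 and 40.9 CPM with P16 shRNA. The groups did not overlap, and library 3 was far above the others: the log2 fold change of 1.27 ± 0.38 (adjusted p = 0.15) became 0.74 without it. In Cd146+ cells Uba7 measured 10.4, 15.1 and 8.01 CPM with nc shRNA and 78.2, 15.4 and 13.8 CPM with P16 shRNA. This was the only member whose groups overlapped here, since P16 shRNA library 6 lay below nc shRNA library 3. The log2 fold change of 1.68 ± 0.73 (adjusted p = 0.44) fell to 0.39 without P16 shRNA library 3, and was 1.74 ± 0.38 with the block (adjusted p = 0.048). The block gave no weight to the overlapping P16 shRNA library 6, which was alone in its number. With the block in Cd31+ cells the log2 fold change was 1.19 ± 0.22 (adjusted p = 0.0046).

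Ube2l6, the E2 enzyme, measured 12.9, 12.6 and 20.3 CPM with nc shRNA and 42.1, 31.2 and 86.7 CPM with P16 shRNA in Cd31+ cells. In Cd146+ cells it measured 10.7, 12.5 and 15.96 CPM against 132, 48.7 and 53.2 CPM. Neither population showed an overlap of the groups. The log2 fold changes were 1.82 ± 0.43 (adjusted p = 0.10) in Cd31+ and 2.57 ± 0.44 (adjusted p = 0.36) in Cd146+ cells. With the block they were 1.76 ± 0.33 (adjusted p = 0.0086) and 2.50 ± 0.48 (adjusted p = 0.049).

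Herc6, the E3 ligase, was present at 5.44, 2.98 and 6.23 CPM with nc shRNA and at 16.1, 9.40 and 31.0 CPM with P16 shRNA in Cd31+ cells. In Cd146+ cells the levels were 10.2, 5.92 and 6.83 CPM against 43.3, 15.4 and 13.0 CPM. All silenced libraries lay above all control libraries in both populations. The log2 fold changes were 1.96 ± 0.50 (adjusted p = 0.11) and 1.64 ± 0.51 (adjusted p = 0.39), or 1.88 ± 0.26 (adjusted p = 0.00061) and 2.09 ± 0.41 (adjusted p = 0.034) with the block. Herc6 was the only member whose difference in Cd31+ cells was larger than in Cd146+ cells without the block, and the order was the opposite with it.

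Usp18, which removes ISG15, rose from low control levels much as Isg15 did in the blocked fits. Its counts in Cd31+ cells were 3, 19 and 85 with nc shRNA and 442, 264 and 1956 with P16 shRNA, or 0.204, 0.883 and 4.77 CPM against 23.7, 14.9 and 90.7 CPM. The 3 counts of nc shRNA library 1 are at the floor, so no ratio is given for number 1; numbers 2 and 3 gave log2 ratios of 4.07 and 4.25. The log2 fold change was 4.46 ± 1.16 (adjusted p = 0.12), and 4.52 ± 1.07 with the block (adjusted p = 0.042). In Cd146+ cells the counts were 8, 38 and 25 with nc shRNA and 3558, 735 and 519 with P16 shRNA, or 0.436, 1.58 and 1.33 CPM against 155, 26.02 and 25.3 CPM. The groups did not overlap in either population. The log2 fold change of 5.92 ± 1.01 (adjusted p = 0.37) was 5.65 ± 0.87 with the block (adjusted p = 0.035).

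Apol9a and Apol9b were added for their rise with the P16 hairpin, so the following values only describe them. Apol9a had 24, 54 and 99 counts with nc shRNA and 743, 415 and 1381 counts with P16 shRNA in Cd31+ cells, a difference of 3.71 on the log2 scale. Its counts in Cd146+ cells were 51, 39 and 25 against 1717, 609 and 785, a difference of 4.55. Apol9b had 16, 22 and 56 counts against 582, 257 and 1113 in Cd31+ cells and 11, 19 and 33 against 1159, 468 and 520 in Cd146+ cells, with differences of 4.22 and 4.87. No library overlapped between the groups for either gene in either population, from which nothing is read, because the contrast chose the pair.

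**Figure D2:**
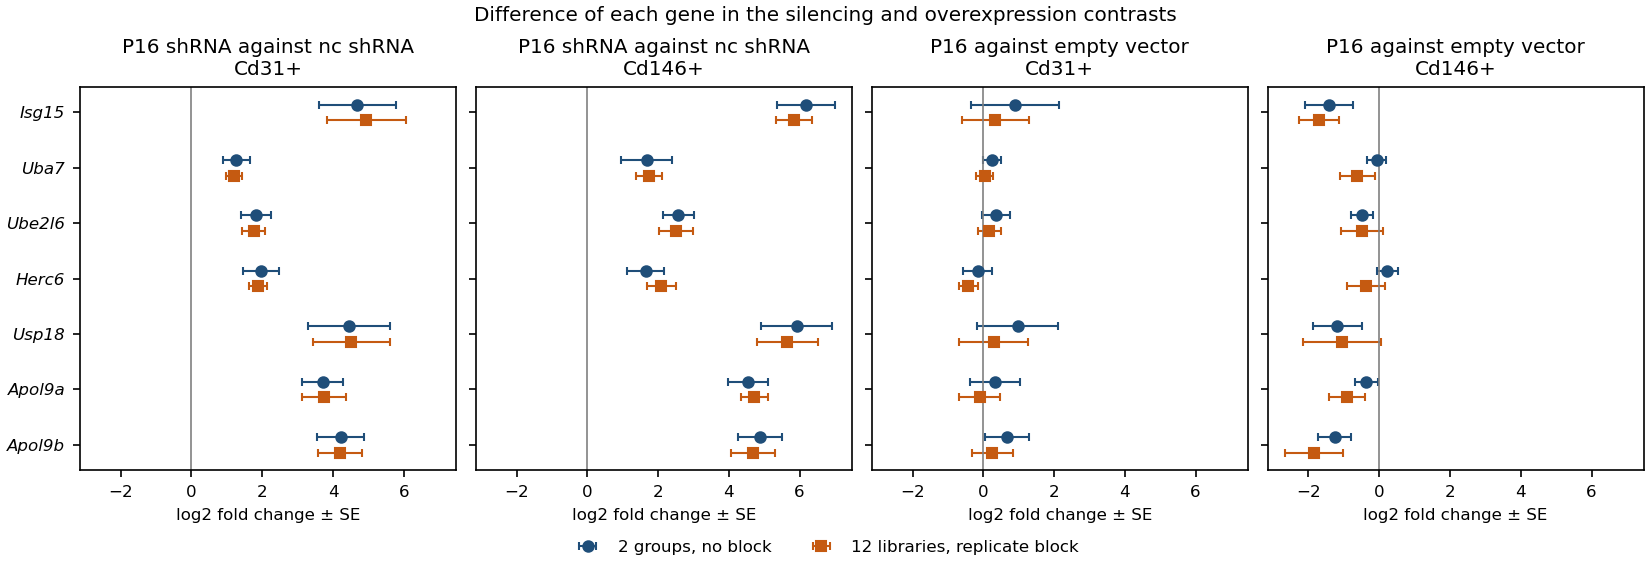
Log2 fold change of each gene, with bars of 1 SE, in the silencing and overexpression contrasts of both populations. Blue circles are the fits of 6 libraries without a block and orange squares the fits of 12 libraries with the replicate number as a block. All 7 genes lie above 0 with silencing, a rise for which the Apol9 pair was chosen. None of the 7 passed an adjusted p of 0.05 with overexpression.

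Alternative fits moved the calls more than the sizes. Without a block, DESeq2 called all 5 conjugation genes in Cd31+ cells (3.38% of all genes rose) and Isg15, Usp18 and Ube2l6 in Cd146+ cells (0.912%). edgeR called 2 of the 5 in Cd31+ cells with all genes of at least 1 count kept, where 1.82% of all genes rose, and 1 of the 5 in Cd146+ cells with all 12 libraries of the population in the fit, where 0.0314% did. Over all settings and left-out libraries, the log2 fold change of Isg15 stayed between 3.73 and 6.12 in Cd31+ and between 5.36 and 7.31 in Cd146+ cells, while its adjusted p ranged from 0.0026 to 0.30 and from 2.6e-19 to 0.89. The lowest value for each of the 7 genes in both populations came without P16 shRNA library 3. Without it, Usp18 was at 3.29 in Cd31+ and 4.50 in Cd146+ cells, Ube2l6 at 1.27 and 1.97, Herc6 at 1.39 and 0.90, Apol9a at 3.28 and 3.97, and Apol9b at 3.70 and 4.32. Without nc shRNA library 3 of Cd31+ cells, Isg15 was at 6.12 and Usp18 at 6.19. Without the libraries that carried Xist, which left 1 silenced and 2 control libraries of Cd146+ cells and assumed that the lone library varied like the controls, Isg15 was at 7.31, Usp18 at 7.20, Uba7 at 2.60, Ube2l6 at 3.49, Herc6 at 2.41, Apol9a at 5.08 and Apol9b at 6.14, with none of the 5 conjugation genes past an adjusted p of 0.05.

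Overexpression of P16 was compared with the empty vector, a contrast that took no part in the choice of the genes. None of the 7 genes passed an adjusted p of 0.05 in either population, under any setting. In the edgeR fit of 6 libraries without a block, with the filter on low counts, 0% of all genes were called in both populations. At an unadjusted p under 0.05 there were 544 genes (3.73%) in Cd31+ and 525 (3.53%) in Cd146+ cells. With all genes of at least 1 count kept, edgeR called 2 higher and 8 lower in Cd31+ cells. The block on the 6 libraries, with 1 residual degree of freedom, gave 61 higher and 31 lower in Cd31+ cells. The block over 12 libraries gave 1 lower in Cd31+ and 2 higher in Cd146+ cells. DESeq2 called 2 higher and 2 lower in Cd31+ and 1 higher in Cd146+ cells. Isg15 measured 2.54, 25.03 and 56.5 CPM with the empty vector (libraries 1, 2 and 5) and 27.3, 8.33 and 119 CPM with P16 (libraries 2, 3 and 5) in Cd31+ cells. The groups overlapped widely, and library 5 was the highest of each group for all 7 genes. The log2 fold change was 0.89 ± 1.24 (adjusted p = 0.96) and became -0.68 without P16 library 5. The other members of Cd31+ cells lay between -0.15 (Herc6, SE 0.41) and 0.97 (Usp18, SE 1.13), with adjusted p from 0.95 to 0.98.

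In Cd146+ cells Isg15 was lower with P16, at 1.34, 7.002 and 6.05 CPM (libraries 1, 3 and 5) against 5.86, 17.1 and 15.2 CPM with the empty vector (libraries 2, 4 and 5). The groups overlapped, and the log2 fold change was -1.42 ± 0.69 (unadjusted p = 0.084, adjusted p = 0.99). Apol9b measured 0.780, 0.911 and 1.13 CPM with P16 and 2.13, 1.37 and 3.27 CPM with the empty vector. All 3 P16 libraries lay below all 3 controls, as was true of 4.89% of all genes, and its log2 fold change of -1.26 ± 0.46 had an unadjusted p of 0.032 and an adjusted p of 0.99. Apol9a, at 3.23, 3.19 and 2.41 CPM against 3.25, 4.81 and 3.27 CPM, was also below in every library, by -0.36 ± 0.33 (adjusted p = 0.99). Uba7 (-0.07 ± 0.27), Ube2l6 (-0.48 ± 0.31), Herc6 (0.23 ± 0.30) and Usp18 (-1.18 ± 0.69) overlapped between the groups.

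The change with silencing was set against the change with overexpression in a fit of all 12 libraries of a population. In the edgeR fit without a block no conjugation gene passed an adjusted p of 0.05: in Cd31+ cells the difference of the log2 changes was 3.79 ± 1.80 for Isg15, 3.48 ± 1.76 for Usp18, 1.00 ± 0.48 for Uba7, 1.45 ± 0.63 for Ube2l6 and 2.10 ± 0.69 for Herc6, with adjusted p from 0.32 to 0.52. With the block, Herc6 alone of the 5 passed in Cd31+ cells (2.31 ± 0.37, adjusted p = 0.0047), beside 2.07% of all genes; without the block 0.0259% of all genes passed in this direction. With all genes of at least 1 count kept, edgeR without a block called 4 of the 5 in Cd31+ cells, beside 0.659% of all genes. In Cd146+ cells the differences were 7.59 ± 1.11 for Isg15, 7.09 ± 1.24 for Usp18 and 3.05 ± 0.55 for Ube2l6, with adjusted p of 0.13, 0.19 and 0.19, and smaller for Uba7 (1.74 ± 0.81) and Herc6 (1.40 ± 0.61). Without a block and with the filter on low counts, edgeR called no gene in this comparison (0%), where 1047 genes (6.58%) were higher at an unadjusted p under 0.05. With all genes of at least 1 count kept, it called 3 higher and 1 lower. DESeq2 called 148 genes higher (0.93%), Isg15 and Ube2l6 among them, and gave no adjusted p for Usp18.

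The change with silencing was also compared between the populations. It was larger in Cd146+ than in Cd31+ cells by 1.49 ± 1.55 on the log2 scale for Isg15, 1.47 ± 1.59 for Usp18, 0.42 ± 0.71 for Uba7 and 0.77 ± 0.62 for Ube2l6, and smaller by -0.30 ± 0.67 for Herc6. None passed the test (adjusted p = 1.0 for each), and neither edgeR nor DESeq2 called any of the 16524 genes (0%); 199 genes (1.2%) by edgeR, and 113 higher and 111 lower by DESeq2, had an unadjusted p under 0.05. A difference between the populations was not detectable with these libraries.

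**Figure D3:**
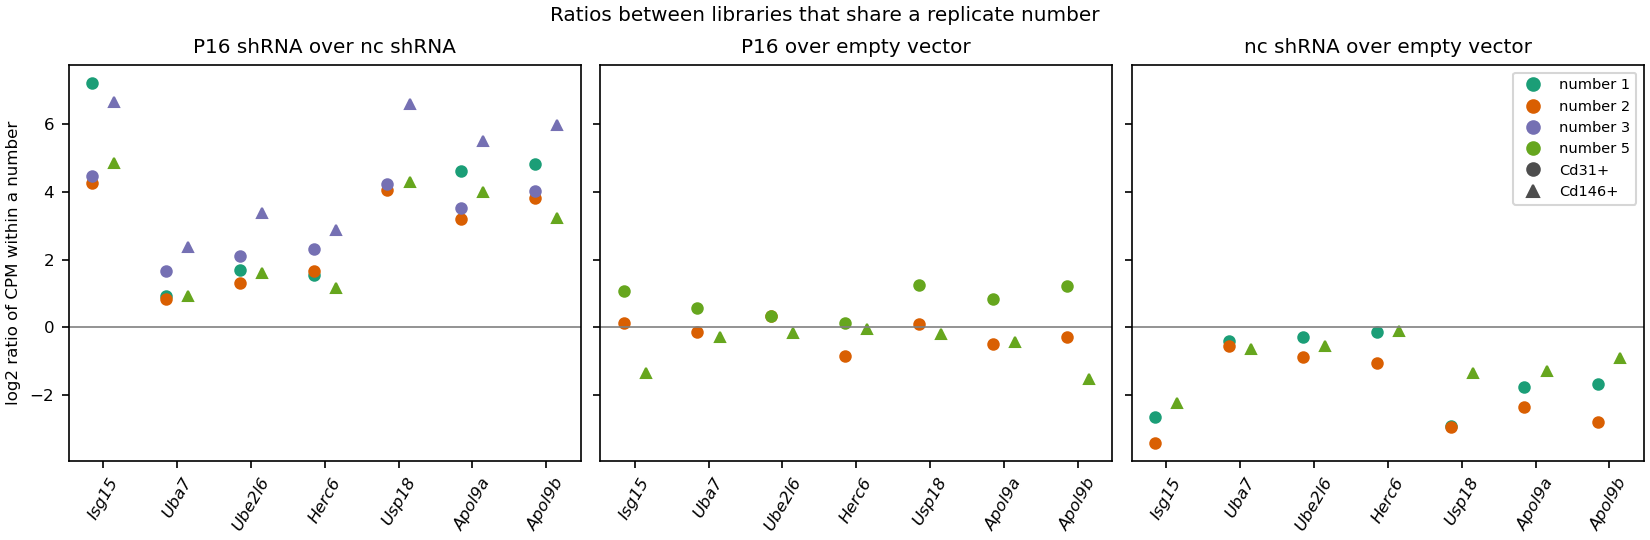
Log2 ratio of CPM between libraries of the same population and replicate number, for the 3 contrasts within a vector or between control vectors. Circles are Cd31+ and triangles Cd146+ pairs, coloured by number. All ratios of P16 shRNA over nc shRNA lie above 0 and all ratios of nc shRNA over empty vector below 0. The Apol9 pair was chosen for its rise with P16 shRNA. Usp18 of number 1 is left out of the silencing panel because its control held 3 counts.

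The control vectors were compared with each other, since each serves as the control of 1 contrast. In the edgeR fit of 6 libraries without a block, with the filter on low counts, no gene (0%) was called in either population. An unadjusted p under 0.05 was reached there by 458 genes (3.16%) in Cd31+ and 597 genes (3.99%) in Cd146+ cells. Also without a block, edgeR called 11 genes lower in Cd31+ cells with all genes of at least 1 count kept. With all 12 libraries of the population it called 4 lower there. DESeq2 called 1 gene higher and 17 lower in Cd31+ and 2 higher and 3 lower in Cd146+ cells, none of the 5 conjugation genes among them. In Cd31+ cells Isg15 was lower with nc shRNA (0.408, 2.37 and 9.15 CPM) than with the empty vector (2.54, 25.03 and 56.5 CPM), although the groups overlapped. Without a block its log2 fold change was -2.82 ± 1.33 (adjusted p = 0.99), and no conjugation gene passed. With the block on the 6 libraries, the comparison rested on the 2 pairs of numbers 1 and 2, with 1 residual degree of freedom. In this fit Isg15 (-3.25 ± 0.26, adjusted p = 5.9e-31), Usp18 (-2.90 ± 0.38, adjusted p = 3.4e-11) and Ube2l6 (-0.57 ± 0.18, adjusted p = 0.043) fell, beside 1.9% of all genes. With so few pairs these adjusted p-values are not firm. The block over 12 libraries gave -1.86 ± 1.24 for Isg15 (adjusted p = 0.65) and called none of the 5. Apol9a and Apol9b, whose nc shRNA libraries took part in the choice, differed by -1.84 and -1.82 without a block. Uba7 and Apol9b were below in all 3 libraries, as were 4.41% of all genes.

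In Cd146+ cells the nc shRNA libraries held less Isg15 (0.818, 3.30 and 3.26 CPM), Usp18 (0.436, 1.58 and 1.33 CPM) and Ube2l6 (10.7, 12.5 and 15.96 CPM) than all 3 empty vector libraries, as did 4.65% of all genes. The log2 fold changes were -2.38 ± 0.67, -1.91 ± 0.68 and -0.79 ± 0.26, with unadjusted p of 0.011, 0.029 and 0.020 and an adjusted p of 0.91 each. Uba7 and Herc6 overlapped between the control vectors. The distance from P16 shRNA differed with the control: the mean CPM of Isg15 with P16 shRNA was 3.68-fold that of the empty vector in Cd31+ and 14.1-fold in Cd146+ cells, where the folds over nc shRNA were 25.9 and 73.1. Isg15 overlapped between P16 shRNA and the empty vector in Cd31+ cells, with ratios of 23.8 for number 1 and 1.84 for number 2. Usp18 and Ube2l6 overlapped there too. For Uba7 the folds over the empty vector were 1.84 and 2.71. These compare different vectors, and no test was run on them.

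With the control constructs of both vectors together, Cd146+ cells were compared with Cd31+ cells. None of the 5 conjugation genes passed an adjusted p of 0.05 or had an unadjusted p under 0.05, where 0.26% and 16.6% of all genes did. The log2 differences were -0.92 ± 0.78 for Isg15, -0.84 ± 0.81 for Usp18, 0.0084 ± 0.36 for Uba7, -0.17 ± 0.31 for Ube2l6 and 0.29 ± 0.34 for Herc6 (adjusted p from 0.57 to 0.99). Apol9a and Apol9b differed by -1.19 and -1.09, given without a test because the nc shRNA libraries among these controls took part in the choice of the pair.

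Ordered by mean level, the 2 P16 shRNA groups stood first and second for all 5 conjugation genes. They did so for Apol9a and Apol9b too, from which nothing is read, because the pair was chosen for its rise with P16 shRNA. Isg15 fell in the order 179 ± 135 (Cd146+ P16 shRNA, SD), 103 ± 86.4 (Cd31+ P16 shRNA), 51.6 ± 59.3 (Cd31+ P16), 28.01 ± 27.1 (Cd31+ empty vector), 12.7 ± 6.02 (Cd146+ empty vector), 4.80 ± 3.03 (Cd146+ P16), 3.98 ± 4.59 (Cd31+ nc shRNA) and 2.46 ± 1.42 CPM (Cd146+ nc shRNA). Neighbours in this order overlapped at every step. The same held for Usp18, Uba7, Ube2l6 and Herc6, whereas Apol9a and Apol9b had 1 step without overlap, between the Cd31+ empty vector (11.6 ± 5.53 and 6.17 ± 2.39 CPM) and the Cd146+ empty vector (3.78 ± 0.89 and 2.26 ± 0.96 CPM). Over the 24 libraries Isg15 spanned 823-fold, Usp18 760-fold with its lowest library at the floor, and Uba7 9.77-fold.

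Per kilobase of gene model, Ube2l6 had the highest level in the nc shRNA groups, and Isg15 had the highest with P16 shRNA. In CPM per kilobase, Ube2l6 was at 7.64 ± 2.18 and Isg15 at 5.66 ± 6.53 in Cd31+ cells with nc shRNA, and at 26.7 ± 14.7 and 146 ± 123 with P16 shRNA. In Cd146+ cells these were 6.54 ± 1.34 and 3.49 ± 2.02 with nc shRNA, and 39.0 ± 23.4 and 255 ± 193 with P16 shRNA. Uba7 followed Isg15 directly in both nc shRNA groups (1.58 and 1.67 CPM per kilobase) and came after all but Herc6 in both P16 shRNA groups (3.79 and 5.35), while Herc6 was last of the 7 with P16 shRNA (2.03 and 2.58). The deposited FPKM values gave the same ranks in every group. The summed level of the 5 conjugation genes was 27.8 to 53.2 CPM with nc shRNA and 118 to 452 CPM with P16 shRNA in Cd31+ cells, and 32.6 to 38.4 CPM against 201 to 744 CPM in Cd146+ cells.

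Libraries of 1 group differed widely in Isg15. Its pooled within-group SD was 1.42 on the log2 scale, against a median of 0.29 over 12855 genes, and 97.7% of genes had a smaller spread. For Usp18 it was 1.29, and for the other members between 0.55 (Ube2l6) and 0.74 (Apol9a). With group means taken out, the deviations of Isg15 and Usp18 over the 24 libraries had a Pearson correlation of 0.95, those of Usp18 and Ube2l6 of 0.94, and those of Isg15 and Ube2l6 of 0.87. Herc6 correlated with Isg15 at 0.41, the lowest value of all pairs, and with Uba7 at 0.76. Apol9a and Apol9b correlated at 0.78, and Isg15 with them at 0.78 and 0.79. These correlations are descriptions over libraries that share replicate numbers. The deviations of Isg15 had a correlation of 0.06 with the total count, 0.18 with the summed endothelial, -0.15 with the summed macrophage and -0.13 with the summed mesenchymal level; the strongest of these for any member was -0.64, between Uba7 and the macrophage sum.

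The genes outside the set whose deviations were most like those of Isg15 were Xaf1 (r = 0.95), Ifit1 (0.95), Irf7 (0.93), Oasl2 (0.92) and Oas1b (0.88), of 12848 genes over 24 libraries. Among those most like Apol9a were Ifi35 (0.87), Irf9 (0.85), Igtp (0.85) and Ifitm3 (0.83). Over the 8 group means Mx2, Irf7, Ifi44 and Ifit1 were among the genes most like Isg15 (each 0.99), and E2f4, Dtx3l, Rtp4, Nop14 and Oasl2 most like Apol9a (0.98 to 0.99). For Apol9a nothing is read from the group means, because the gene was chosen for its rise with P16 shRNA.

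The counts of the Apol9 pair can depend on how reads that match both genes were handled. Whether such reads were split between the genes or left out is not given in the sources used here. Of the stretches of 100 bases in the GENCODE M21 transcripts, 11.7% of those of Apol9a and 36.7% of those of Apol9b occur in the other gene. Each single value is therefore uncertain, and the sum of the pair is given as well. The sum had 40 to 155 counts with nc shRNA and 672 to 2494 with P16 shRNA in Cd31+ cells, and 58 to 62 against 1077 to 2876 in Cd146+ cells. In CPM the sums were 4.99 ± 3.25 against 74.8 ± 39.1 and 2.97 ± 0.49 against 75.7 ± 44.8. Apol9a made up 55.4% to 61.8% of the sum in the 6 silenced libraries. Its share went from 43.1% (25 of 58 counts, 95% Wilson interval 31.2% to 55.9%) to 82.3% (51 of 62 counts, 71.0% to 89.8%) over all libraries, both in nc shRNA libraries of Cd146+ cells; the intervals cover counting error only. With the P16 construct in Cd146+ cells the share was 68.1% to 80.6% and with P16 shRNA 56.5% to 60.2%. Herc6 shares 10.3% of its stretches with Gm45193, and Uba7 1.69% with Gm20661, a gene of the same strand with 37 counts over all libraries.

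**Figure D4:**
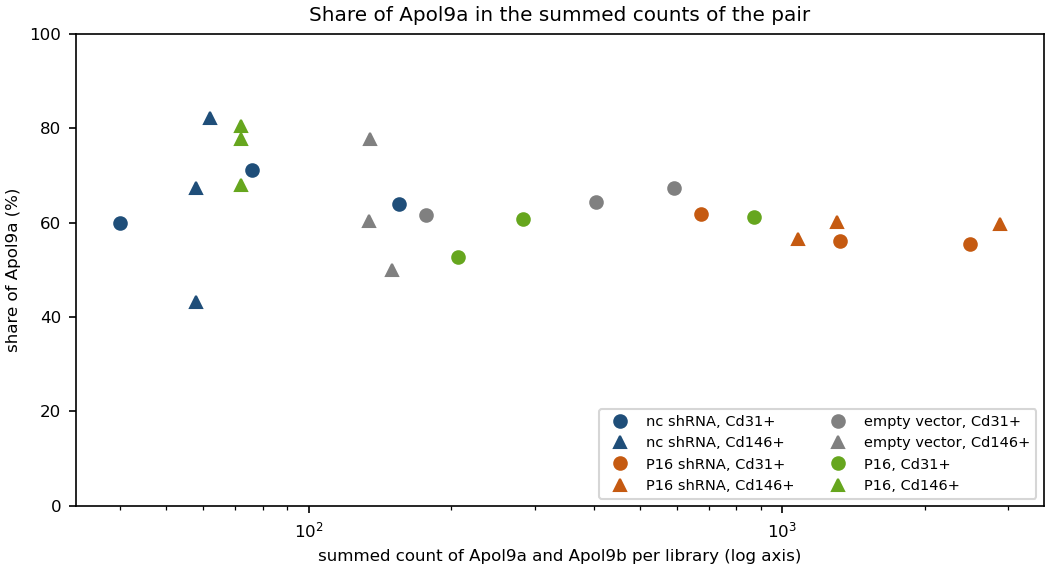
Share of Apol9a in the summed count of Apol9a and Apol9b (percent) against that sum (log axis), 1 point for each of the 24 libraries. The 6 P16 shRNA libraries lie at 55.4% to 61.8%, and the libraries with the fewest counts spread from 43.1% to 82.3%.

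Other genes of the pathways were described from lists of known members. Of 10 further genes reported to conjugate or remove ISG15, none passed an adjusted p of 0.05 with silencing in the edgeR fit without a block in either population, and their median log2 fold change was 0.02 in Cd31+ and 0.08 in Cd146+ cells, against 0.00 and 0.03 for all genes. The ligase gene Trim25 was higher by 0.60 and 0.96 (adjusted p = 0.16 and 0.42; 0.58, adjusted p = 0.030, and 1.04, adjusted p = 0.090, with the block). Arih1, the gene of another ISG15 ligase, had log2 fold changes of -0.75 and -0.65 (adjusted p = 0.092 and 0.38) and fell in both populations with the block (-0.74, adjusted p = 0.0012, and -0.60, adjusted p = 0.0073). DESeq2, without a block, called Arih1 lower in both populations (adjusted p = 0.0041 and 0.031) and no other gene of this list. Usp13 rose in Cd31+ cells with the block (0.45, adjusted p = 0.024). Usp14, the gene of another peptidase, rose in Cd146+ cells with the block (0.44, adjusted p = 0.040) and measured -0.03 in Cd31+ cells (adjusted p = 0.91). Of all genes, with the block 7.95% rose and 1359 of 15426 fell in Cd31+ cells, and 3.53% rose and 764 of 15915 fell in Cd146+ cells. DESeq2 called 611 of 14358 genes lower in Cd31+ and 195 of 15124 in Cd146+ cells.

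Of the closest ubiquitin counterparts of the cascade, Uba1 and Ube2l3 moved little. Uba1, the E1 of ubiquitin, was at 395 to 524 CPM in the 24 libraries and differed by -0.17 and -0.26 on the log2 scale with silencing (adjusted p = 0.36 and 0.51), and Ube2l3, the nearest relative of Ube2l6, by 0.09 and 0.21 (adjusted p = 0.70 and 0.69). None of the 7 relatives (Uba1, Uba6, Ube2l3 and Herc1 to Herc4) passed an adjusted p of 0.05 with or without the block over 12 libraries. Their summed level in Cd31+ cells was 839 to 889 CPM with P16 shRNA against 947 to 969 CPM with nc shRNA. In Cd146+ cells it was 706 to 847 CPM against 905 to 960 CPM. By DESeq2, Herc1, Herc2 and Herc3 measured -0.67, -0.73 and 0.34 in Cd146+ cells (adjusted p = 0.31, 0.17 and 0.76). In Cd31+ cells they measured -0.28, -0.27 and 0.25 (adjusted p = 0.13, 0.23 and 0.64). Of 14 other ubiquitin-like modifiers and ubiquitin genes, 13 were tested, with medians of 0.21 and 0.22 and no call in the edgeR fit without a block. With the block, Atg12 rose in Cd31+ cells (0.34, adjusted p = 0.037), beside 7.95% of all genes. Sumo2, which encodes a SUMO modifier, stood apart from the list with 1.82 in Cd31+ and -1.24 in Cd146+ cells (adjusted p = 0.077 and 0.55). It was the 1 gene of the list that DESeq2 called, in Cd31+ cells (adjusted p = 1.6e-05), where 3.38% of all genes rose. The ubiquitin gene Ubb differed by 0.36 in both populations (adjusted p = 0.28 and 0.49). Ubd, which encodes the interferon-inducible modifier FAT10, had at most 7 counts in any library and 0 in 11 of them.

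Of 12 other genes of the apolipoprotein L family, 5 were abundant enough to be tested, with medians of 1.11 in Cd31+ and 1.47 in Cd146+ cells and no call in the edgeR fit without a block. DESeq2 called Apol6 in Cd31+ cells (adjusted p = 0.043) and Apol7a in Cd146+ cells (adjusted p = 0.018), beside 3.38% and 0.912% of all genes. Apol6 was higher by 1.14 and 1.47 (adjusted p = 0.11 and 0.45) and rose in both populations with the block (1.13, adjusted p = 0.015, and 1.40, adjusted p = 0.022). Apol7a (1.17, adjusted p = 0.016) and Apol10b (1.63, adjusted p = 0.049) rose with the block in Cd31+ cells and had adjusted p of 0.060 and 0.35 in Cd146+ cells. In these fits 7.95% of all genes rose in Cd31+ and 3.53% in Cd146+ cells. Apol8 lay at 0.13 and -0.43 (adjusted p = 0.87 and 0.90), and Apold1 at -0.49 and 0.71 (adjusted p = 0.86 and 0.83). The levels stayed low: the highest library of Apol6 had 36.3 CPM and that of Apol7a 5.68 CPM.

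Of 22 genes of interferon signalling, 17 were tested. The interferon genes themselves were near 0: Ifnb1, which encodes interferon beta, had at most 8 counts in a library and 0 in 19 of 24, and Ifna1 had none. So few counts cannot show whether these genes changed with silencing. Ifnar1, a receptor chain of type I interferon, was at 74.6 to 133 CPM and differed by -0.14 and -0.33 with silencing (adjusted p = 0.57 and 0.50). Stat2 and Irf9, which encode factors downstream of the receptor, were higher by 1.87 and 1.78 in Cd31+ cells (adjusted p = 0.10 and 0.091) and by 2.02 and 2.00 in Cd146+ cells (adjusted p = 0.38 each). With the block over 12 libraries, 7 of the 17 rose and 1 fell (Jak1, -0.44) in Cd31+ cells, and 5 rose in Cd146+ cells. Of all genes in these fits, 7.95% rose and 1359 of 15426 fell in Cd31+ cells, and 3.53% rose in Cd146+ cells. DESeq2 without a block called 6 higher and 1 lower in Cd31+ and 5 higher in Cd146+ cells. Of all genes it called 3.38% higher and 611 of 14358 lower in Cd31+ cells, and 0.912% higher in Cd146+ cells. Irf7, the amplifier of the interferon response, had the largest difference of the list, 3.43 and 4.97 (3.39, adjusted p = 0.025, and 4.82, adjusted p = 0.019, with the block). Irf9, Irf1 and Socs1 rose in both populations with the block, and Stat2 and Ifnar2 in Cd31+ cells (Stat2 in Cd146+ cells 2.24, adjusted p = 0.054). The median of the 17 genes was 0.03 in Cd31+ and 0.00 in Cd146+ cells without a block, against 0.00 and 0.03 for all genes.

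**Figure D5:**
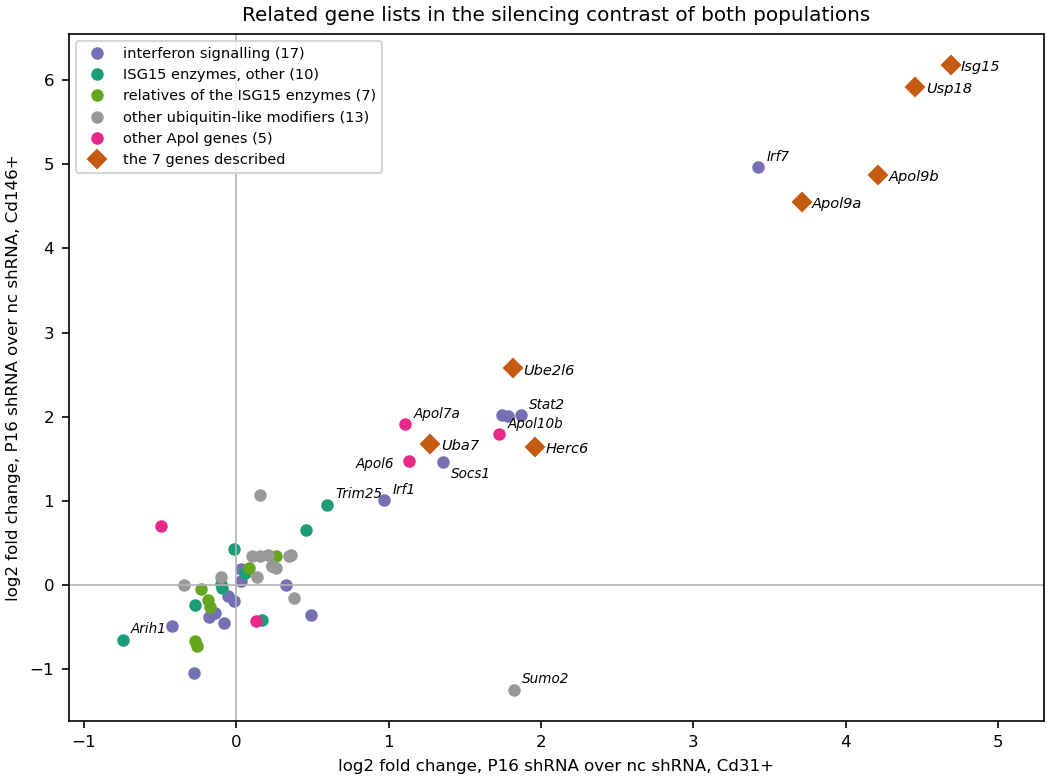
Log2 fold change with P16 shRNA over nc shRNA in Cd31+ (x axis) and Cd146+ cells (y axis), from the fits without a block. Each point is 1 tested gene, coloured by list, with the number of genes in the legend; Isg15 and Usp18 lie farthest out, Irf7 lies near the Apol9 pair, most genes of the other lists lie near 0, and Sumo2 lies below the axis at 1.82 and -1.24.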

How the data were processed

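RNA of 24 libraries in 8 groups of 3 had been sequenced and processed by the authors' sequencing provider. The deposited table held raw counts per gene and, beside them, FPKM values that the authors had computed; it also held the authors' fold changes and p-values for 4 comparisons, which were not used. The submitters' notes name fastp and mm9; the aligner and counter are not given in the sources used here. FPKM served only to check ranks between genes.

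Counts were tested with edgeR 4.0.16 in R 4.3.3 (quasi-likelihood test with robust dispersions, filterByExpr, TMM, Benjamini-Hochberg adjustment over all genes tested, two-sided, threshold 0.05) on the 6 libraries of the groups compared; differences between contrasts used all libraries concerned. CPM used TMM factors. SEs were derived from the fold change and its F value. Alternatives were DESeq2 1.42.0, its size factors, other filters (at least 1 count; a mean of at least 10), all 12 libraries of a population, a replicate block and each library left out. The fits were tested on simulated data with a capped spread and no effect of the replicate number. This setting does not cover the wide spread of Isg15 and Usp18 within groups. Correlations used log2(CPM + 0.5). Replicate numbers pair the libraries: deviations from group means correlated with a median of 0.576 for the 13 Cd31+ and 0.699 for the 10 Cd146+ pairs of the same number (lowest 0.360 and 0.350), against -0.173 and -0.0651 for other pairs.

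The genes and lists were chosen with earlier results of these data known. Genes named beside the 7 are those of the lists on ISG15 enzymes, Apol genes and interferon signalling that were tested, up to 3 per further list by level and by change, and the 5 most like Isg15 and Apol9a; marker genes, Atg12, Ifnb1, Ifna1 and Ubd were named after their values were seen. The values of 1 further gene are not reported here. Promoter letters came from RefSeq.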

Additional observations from a re-analysis of the deposited data

How the results depend on the processing

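Of the results recomputed under other settings, 518 stayed the same, 36 passed the threshold only there, 8 turned direction and 1 moved. With single libraries left out the numbers were 558 the same, 25 turned and 5 moved. For a tested fold change, the same meant the same direction and side of the threshold. Untested fold changes of the Apol9 pair had to keep their direction and shift by less than the pooled within-group SD. Levels of a group under another scaling had to shift by less than the SD of the group. Larger shifts of these untested values counted as moved. The number of the 5 conjugation genes called with silencing was 0 in the edgeR fit of 6 libraries without a block in both populations. In Cd31+ cells it was 2 with all genes of at least 1 count (1.82% of all genes rose) and 5 with DESeq2 (3.38%). It was also 5 there with the replicate block on 2 groups (8.92%) and 5 with the replicate block on 12 libraries (7.95%). In Cd146+ cells it was 3 with DESeq2 (0.912%) and 1 with all 12 libraries (0.0314%). It was 5 there with the replicate block on 12 libraries (3.53%), a fit that rested on P16 shRNA libraries 3 and 5. For nc shRNA against empty vector in Cd31+ cells it was 3 with the replicate block on 2 groups (1.9% of all genes fell), a fit with 1 residual degree of freedom. For silencing minus overexpression in Cd31+ cells it was 4 with all genes of at least 1 count (0.659% of all genes higher). It was 1 there with the replicate block (2.07%), and 2 in Cd146+ cells with DESeq2 (0.93%). No single library left out changed a count of 0. The block changed no other count.

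Direction turned under the replicate block for Apol9a with P16 overexpression in Cd31+ cells (-0.10), for Herc6 in Cd146+ cells with P16 overexpression (-0.36) and nc shRNA (-0.39), and for Herc6 between populations (0.21). Without the Xist libraries, an alternative chosen after seeing the data, it turned for Apol9a (-0.38) and Apol9b (-0.020) with overexpression in Cd31+ cells and for Uba7 in Cd146+ cells with overexpression (0.42) and nc shRNA (0.31). None of these passed a threshold. With single libraries left out, overexpression in Cd31+ cells ranged from -0.68 to 1.93 for Isg15, -0.72 to 1.89 for Usp18, -0.056 to 0.44 for Uba7, -0.012 to 0.72 for Ube2l6, -0.65 to 0.14 for Herc6, -0.73 to 0.74 for Apol9a and -0.26 to 1.00 for Apol9b, with P16 library 5 giving each lowest value. In Cd146+ cells it ranged from -0.26 to 0.15 for Uba7 and -0.019 to 0.40 for Herc6, and nc shRNA against empty vector from -0.051 to 0.38 for Herc6. The silencing difference between populations ranged from -0.33 to 2.61 for Usp18, -0.88 to 0.93 for Uba7, -1.05 to 0.25 for Herc6 and -0.086 to 1.24 for Apol9b, and the difference between control populations from -1.13 to 0.047 for Usp18, -0.12 to 0.12 for Uba7 and -0.29 to 0.027 for Ube2l6. The cause was not tested. No block on 2 groups could be fitted for overexpression or nc shRNA against empty vector in Cd146+ cells, which share fewer than 2 numbers, nor any for Cd146+ against Cd31+ cells.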
